A study of Mus musculus with 2 samples.

Results

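Histone genes encode the H1, H2A, H2B, H3 and H4 proteins on which nuclear DNA is wound. They were described here in mouse liver RNA by taking every gene whose symbol in the array annotation starts with a histone prefix. Such prefixes were H1f, H2a, H2b, H3c, H3f and H4c, with the H2- symbols of the major histocompatibility complex left out. Only probe sets carrying a single gene symbol were used, and where a gene had several, the one with the highest mean of the arrays stood for it. This gave 47 histone genes of 22180 genes in all. The study measured liver RNA on 2 Affymetrix whole-transcript arrays. The irradiated liver was male C57BL/6 liver taken at 9 weeks of age, exposed at 4 weeks of age to 1 whole-body gamma-ray dose of 6 Gy under anaesthesia, at 0.81 Gy/min, 5 weeks before collection. The control liver was untreated, of the same sex, strain and age. C57BL/6 is an inbred laboratory strain. Neither pooling of animals nor any sham handling of the control is described in the labels. Each group was represented by 1 array, so no difference has a replicate check or a test, and the difference between the arrays holds the spread between animals as well as any effect of the exposure. In whole liver, fewer cells of a type and less RNA per cell cannot be told apart.

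Most histone genes lie in clusters and are switched on together in S phase, when replicating DNA needs new histones. Npat, recruited to the clusters, drives their transcription, and their mRNAs end in a stem-loop bound by Slbp in place of a poly(A) tail. Other genes encode variants such as H2A.Z, made throughout the cell cycle from polyadenylated mRNA. H2ax, the H2A.X gene, gives both a stem-loop mRNA in S phase and a polyadenylated one. A further group is used in testis or oocytes, where special histones help to repackage the genome. Adult hepatocytes are mostly quiescent, so that cluster mRNA is usually low in liver. On these arrays some cluster probe sets, such as that of H4c12, still read high, while many others read low. The phosphorylation of H2A.X at DNA breaks is a change of the protein and was not measured by these arrays. The sources used here do not say whether labelling needed a poly(A) tail.

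The 47 genes were 24 canonical cluster genes, 5 variant genes of body cells, 16 testis or oocyte genes and 2 pseudogenes. By protein there were 8 linker H1 genes, 21 H2A genes, 11 H2B genes and 7 H4 genes. Chromosome 13, which holds the main mouse cluster, carried 23 of them, chromosome 3 carried 6, chromosome 11 carried 3 and the X chromosome 9. No H3 gene had a probe set of its own. The array annotation held 100 histone symbols, of which 53 occurred only on probe sets that list several symbols, and all 15 H3 symbols were among them. Those shared probe sets are described after the single genes. Since the mRNAs of cluster genes are near copies of each other, probes assigned to 1 gene can also bind its relatives, which limits every single-gene value here.

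Promoters were set out first, to compare motifs of cluster and variant genes. RefSeq promoter windows of mouse build GRCm38.p6, which run from 250 bases before to 50 bases after the gene start, were found for 42 of the 47 genes. The following 4 are shown to compare the linker H1 and H4 genes with the highest values in their classes, a cluster gene with 3 kinds of motif and a variant gene. They are H4c12 (chr13:21750504-21750803, minus strand), H1f2 (chr13:23738557-23738856, plus strand), H2bc3 (chr13:23746484-23746783, plus strand) and H2az2 (chr11:6444394-6444693, minus strand). Capitals mark matches to the CCAAT box (CCAAT, or ATTGG on the other strand), the TATA box (TATAAA, or TTTATA) and the octamer (ATTTGCAT, or ATGCAAAT). The motifs share no bases in these windows.
H4c12: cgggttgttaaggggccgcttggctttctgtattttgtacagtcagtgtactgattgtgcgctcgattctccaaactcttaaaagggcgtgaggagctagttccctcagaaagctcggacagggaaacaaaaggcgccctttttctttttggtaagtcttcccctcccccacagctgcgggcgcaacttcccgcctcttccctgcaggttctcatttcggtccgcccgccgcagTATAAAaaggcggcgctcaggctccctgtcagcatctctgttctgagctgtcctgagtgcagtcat
H1f2: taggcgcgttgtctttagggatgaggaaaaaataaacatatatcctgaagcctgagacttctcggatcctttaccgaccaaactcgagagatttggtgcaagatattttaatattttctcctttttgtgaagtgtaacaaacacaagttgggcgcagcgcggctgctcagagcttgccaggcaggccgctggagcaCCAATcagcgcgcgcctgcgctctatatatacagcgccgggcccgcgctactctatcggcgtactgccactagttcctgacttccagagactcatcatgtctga
H2bc3: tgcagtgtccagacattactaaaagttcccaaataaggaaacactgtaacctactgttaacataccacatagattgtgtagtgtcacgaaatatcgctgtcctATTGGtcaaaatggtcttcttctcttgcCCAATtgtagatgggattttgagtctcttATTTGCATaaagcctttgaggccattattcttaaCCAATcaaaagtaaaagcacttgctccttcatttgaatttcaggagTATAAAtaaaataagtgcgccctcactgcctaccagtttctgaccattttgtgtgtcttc
H2az2: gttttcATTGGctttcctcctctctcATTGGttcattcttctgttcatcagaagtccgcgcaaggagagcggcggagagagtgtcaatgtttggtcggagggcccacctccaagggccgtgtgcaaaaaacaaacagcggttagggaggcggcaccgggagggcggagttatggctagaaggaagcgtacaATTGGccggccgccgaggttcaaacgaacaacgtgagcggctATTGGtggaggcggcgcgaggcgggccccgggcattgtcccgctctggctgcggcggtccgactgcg
The H2bc3 window held 3 CCAAT matches, 1 octamer and 1 TATA match, and the H4c12 window held 1 TATA match and none of the others. The H1f2 window held 1 CCAAT match, and the H2az2 window 4 CCAAT matches and no TATA match.

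Over all histone windows, CCAAT or its complement occurred in 29 of 42 (69.0%), against 37.9% of 27025 promoter windows of the genome. TATAAA occurred in 18 of 42 (42.9%), against 14.2% of all windows, and the octamer in 9 of 42 (21.4%), against 1.75%. Cluster genes held a TATA match in 14 of 22 windows, the variant genes of body cells in 0 of 4, and testis or oocyte genes in 4 of 16. CCAAT did not set cluster and variant genes apart, with 17 of 22 cluster and 3 of 4 variant windows. The variant H2ax had no window. The classes differed in which motif they held. CCAAT was in all 6 H2A and all 6 H2B cluster windows and in all 4 of H1, but in 1 of 6 of H4. The octamer, a binding motif of POU factors known from H2B promoters, was in 4 of 6 H2B and 3 of 6 H2A cluster windows and in 0 of 6 H4 windows. TATAAA was in 3 of the 7 cluster windows whose genes read above the floor defined next, and in 11 of the 15 below it. Windows of genes transcribed away from a shared promoter overlap, so these counts are not independent. A match describes letters in a window, and no match says only that these letters are not there.

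A gene was called expressed where either array reached 6.06, the median of all deposited log2 values, which is a rank and not a measured background. Of the 47 histone genes, 19 reached it, 17 of them on both arrays and H1f8 and H2ap on the control array alone, and the other 28 lay below it on both. The genes just inside were H1f8, H2bc18 and H2ap, with higher values of 6.14, 6.15 and 6.16, and those just outside were H4c9, H2bc12 and H4c14, with higher values of 5.91, 5.88 and 5.86. Values of different probe sets depend on their probes and do not rank transcript amounts between genes.

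No histone gene with a probe set of its own differed by 1.5-fold, or 0.585 on the log2 scale. Among the 19 expressed ones, 0 were at least 1.5-fold higher in irradiated liver, where 1.14% of all 13689 expressed genes were, and 0 were at least 1.5-fold lower, where 0.65% were. With shares this small, 0 of 19 lies near the background. Differences, given throughout as irradiated minus control on the log2 scale, were above 0 in 9 genes (47.4%) and below 0 in 10, against 48.5% above 0 over all expressed genes. Their median was -0.02, against -0.00 over all expressed genes, and they ran from -0.40 to 0.41, where the central 95% of all expressed genes spanned -0.37 to 0.42. The median size of the difference, regardless of sign, was 0.13 for histone genes and 0.11 for all expressed genes. The 28 genes below the floor held 13 differences above 0, 13 below 0 and 2 of exactly 0, and none reached 1.5-fold.

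**Figure D1:**
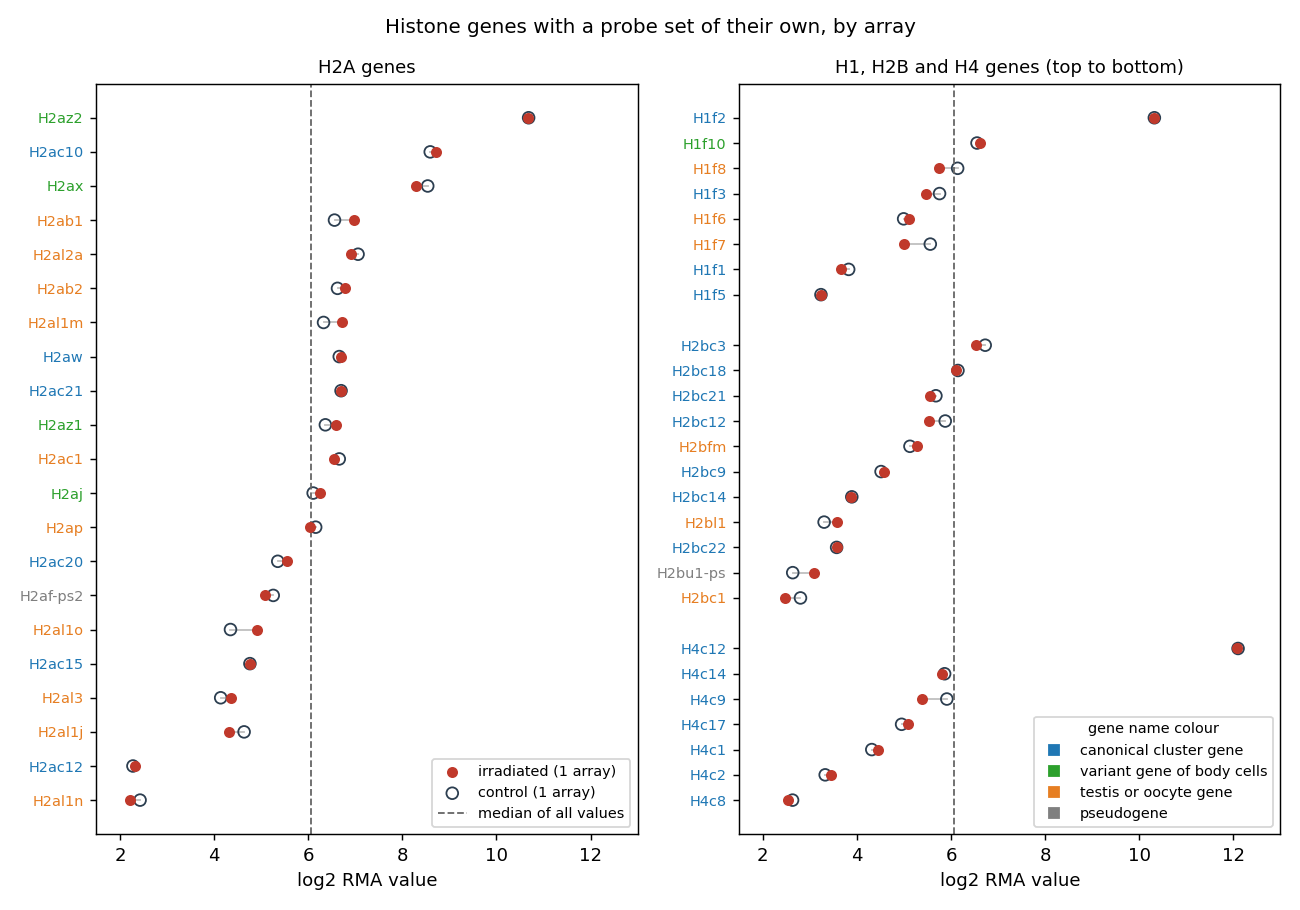
Log2 RMA value (x axis) of each of the 47 histone genes (y axis, ordered by the irradiated value within a class). The irradiated array is shown as filled points and the control array as open circles, and gene names are coloured by kind. The dashed line is the floor of 6.06; the points of a gene lie close together, and 28 genes lie left of the line on both arrays.

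The linker histone H1 binds DNA where it enters and leaves the nucleosome. H1f2, formerly Hist1h1c and the H1 cluster gene with the highest values, read 10.30 in irradiated liver and 10.32 in control liver, a difference of -0.02. H1f10, a variant made outside S phase, read 6.62 in irradiated and 6.55 in control liver (0.07). H1f8, the oocyte linker histone, read 5.74 in irradiated and 6.14 in control liver, a difference of -0.40 that is 1.32-fold. This was the most negative value among the expressed histone genes, but the irradiated reading lay under the floor, and with it set to the floor the difference was -0.08. The other 5 H1 genes were below the floor. Among them H1f7, a testis linker histone, read 4.99 in irradiated and 5.56 in control liver (-0.57), and H1f3 read 5.47 in irradiated and 5.75 in control liver (-0.28). H1f5 had the same value, 3.23, on both arrays, and H2ac15 likewise 4.76. Such equal pairs occurred in 1016 of the 41345 probe sets.

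The variant genes of body cells all read above the floor. H2ax encodes H2A.X, the variant whose phosphorylated form marks DNA breaks. It read 8.28 in irradiated and 8.54 in control liver, a difference of -0.26 that is 1.20-fold lower in irradiated liver. Regardless of sign, 85.6% of expressed genes had a difference smaller in size. The same share was 95.5% for the testis gene H2ab1 and 95.2% for H1f8. H2az1 and H2az2 encode the H2A.Z proteins, which sit at transcription start sites. H2az1 read 6.59 in irradiated and 6.36 in control liver (0.22, or 1.17-fold higher), while H2az2 read 10.67 in irradiated and 10.68 in control liver (-0.02). The larger of these differences was that of H2az1, whose readings lay close to the floor. H2aj encodes H2A.J, which in human fibroblasts accumulates in senescence with lasting DNA damage. It read 6.25 in irradiated and 6.10 in control liver, a difference of 0.14. Over the 5 variants the median difference was 0.07, with 3 above 0 and 2 below. Related variant genes outside the symbol rule included the macroH2A genes. Macroh2a1 read 10.14 in irradiated and 10.12 in control liver (0.02), while Macroh2a2, below the floor on both arrays, read 5.83 in irradiated and 5.45 in control liver (0.38). Cenpa, the centromeric H3, read 7.46 in irradiated and 7.53 in control liver (-0.07), and H4f16, an H4 gene named outside the rule, 7.32 in irradiated and 7.42 in control liver (-0.10). H1f0, the linker histone of resting cells, had no probe set in the annotation used here.

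Canonical H2A genes read above the floor in 3 cases. H2ac10, a chromosome 13 gene, read 8.72 in irradiated and 8.59 in control liver (0.13). H2aw, the H2A gene of the small chromosome 11 cluster, read 6.71 in irradiated and 6.66 in control liver (0.05). H2ac21 of chromosome 3 read 6.71 in irradiated and 6.70 in control liver, with a difference of 0.01. A second H2ac21 probe set, below the floor, read 4.80 in irradiated and 4.56 in control liver (0.24). The smaller difference was that of the brighter probe set.

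H2B had 2 expressed genes. H2bc3, whose promoter is printed above, read 6.52 in irradiated and 6.72 in control liver, a difference of -0.20. H2bc18 of chromosome 3 read 6.10 in irradiated and 6.15 in control liver (-0.05). Both were lower in irradiated liver by less than the 1.5-fold size. The other 9 H2B genes lay below the floor, with H2bc12 at 5.52 in irradiated and 5.88 in control liver (-0.35). Of the 7 H4 genes only H4c12 was expressed. It had the highest reading of any histone gene with its own probe set, 12.08 in irradiated and 12.10 in control liver (-0.02). Below the floor, H4c9 read 5.39 in irradiated and 5.91 in control liver (-0.52), and H4c14 5.82 in irradiated and 5.86 in control liver (-0.05). Taken by kind, the 7 expressed cluster genes had differences from -0.20 to 0.13 with a median of -0.02.

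Testis and oocyte genes gave the widest differences. H2ab1, an X-linked gene of the short H2A.B variant of spermatids, read 6.97 in irradiated and 6.56 in control liver (0.41, or 1.33-fold higher). Its second probe set turned the sign, with 5.30 in irradiated and 5.40 in control liver (-0.10), whereas another that it shares with the symbol Gm14989 read 8.42 in irradiated and 8.01 in control liver (0.41). H2al1m, of the X-linked H2A.L family of late spermatids, read 6.72 in irradiated and 6.33 in control liver (0.39). Shared probe sets above the floor that list H2al1m with its relatives had differences at or below 0, from -0.25 to 0.00. The positive values of H2ab1 and H2al1m were not shared across the group. H2al2a, whose protein helps protamines to load in mouse spermatids, read 6.91 in irradiated and 7.06 in control liver (-0.15). H2ac1, the testis H2A called TH2A, read 6.54 in irradiated and 6.66 in control liver (-0.12). H2ab2, closely related to H2ab1, read 6.77 in irradiated and 6.62 in control liver (0.15), and the X-linked H2ap 6.03 in irradiated and 6.16 in control liver (-0.12). In all, 7 of the 16 testis and oocyte genes were expressed by the floor, 3 with positive and 4 with negative differences and a median of -0.12. Below the floor, H2al1o had the largest positive value of any histone gene with its own probe set, with 4.91 in irradiated and 4.35 in control liver (0.57). Taken with the 5 variants, they had a median difference of 0.03 over 12 expressed genes. Without the testis and oocyte genes and the pseudogenes, 12 expressed histone genes remained, 6 above 0 and 6 below, from -0.26 to 0.22.

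The remaining genes below the floor are given by class. The H4 genes H4c1, H4c2, H4c8 and H4c17 had differences from -0.10 to 0.15, with H4c17 highest at 5.09 in irradiated and 4.95 in control liver. The canonical H2B genes H2bc9, H2bc14, H2bc21 and H2bc22 ran from -0.13 to 0.06, and H2bc21, on chromosome 3, read 5.54 in irradiated and 5.68 in control liver. Each of these 8 genes thus differed by less than 0.2 on the log2 scale. Among canonical H2A genes, H2ac20 read 5.55 in irradiated and 5.35 in control liver (0.20) and H2ac12 2.33 in irradiated and 2.27 in control liver (0.05). The linker gene H1f1 read 3.66 in irradiated and 3.82 in control liver (-0.16), and the testis linker gene H1f6 5.10 in irradiated and 4.99 in control liver (0.11). The X-linked testis H2A genes gave both signs, with -0.31 for H2al1j, -0.20 for H2al1n and 0.21 for H2al3. The testis H2B genes H2bfm and H2bl1 had 0.14 and 0.28, and the pseudogene H2af-ps2 -0.17.

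Size of the difference went with the reading. The 13 histone genes whose higher value lay within 1 log2 unit above the floor had a median size of 0.14, against 0.13 for 4306 genes of that range. The 6 histone genes with higher readings had a median size of 0.08, against 0.10 for 9383 genes. The 28 genes below the floor had 0.15, against 0.14 for 8491 genes. At each level the histone genes thus lay close to all genes, and H2ab1, H2al1m and H1f8, the only expressed ones with differences over 0.3 in either direction, were among those within 1 log2 unit of the floor.

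**Figure D2:**
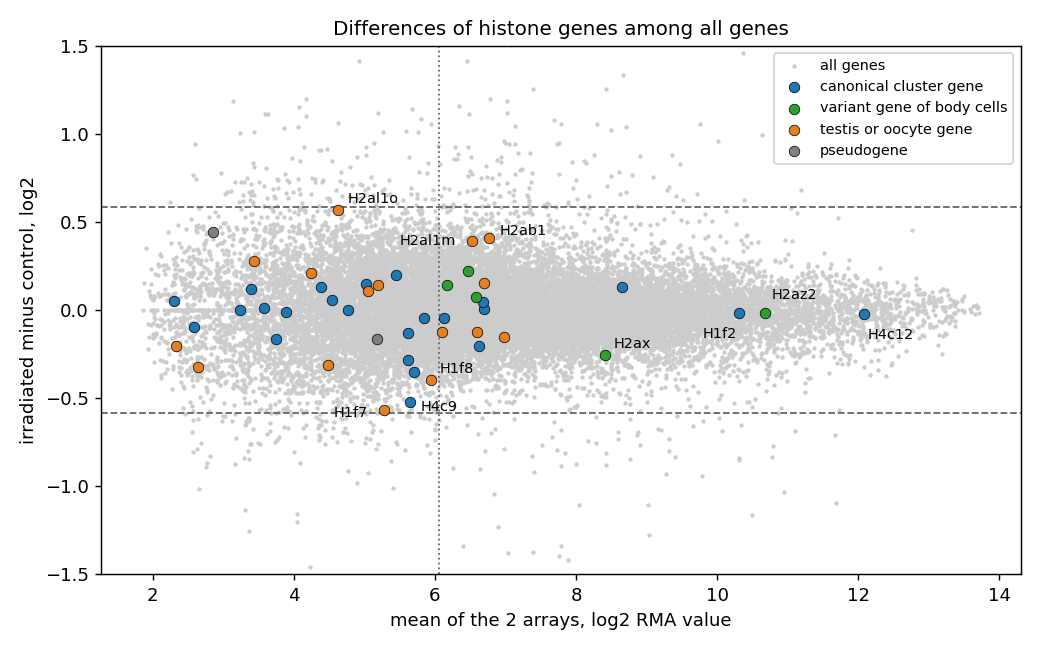
Difference between irradiated and control liver (y axis, log2) against the mean of the 2 arrays (x axis, log2 RMA value) for all genes in grey and histone genes in colour by kind, with 34 genes beyond the y axis of 1.5 not shown. Dashed lines mark 1.5-fold and the dotted line the floor; every histone gene lies between the dashed lines, and H1f2, H2az2 and H4c12 lie at about 0.

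Cluster genes often lie next to each other, so the 5 pairs of neighbours under 1000 bases apart were read side by side. H2bc1 and H2ac1, the testis H2B and H2A pair on chromosome 13 with 280 bases between them, had differences of -0.32 for H2bc1 and -0.12 for H2ac1. H2ac12 and H2bc12, 177 bases apart on chromosome 13, had 0.05 for H2ac12 and -0.35 for H2bc12. On chromosome 11 the pseudogene H2bu1-ps had 0.45 and its neighbour H2aw, 172 bases away, 0.05. On chromosome 3 H2ac20 had 0.20 and H2bc21, 191 bases away, -0.13. H2ac21 and H2ac20, 58 bases apart on chromosome 3, had 0.01 for H2ac21 and 0.20 for H2ac20. In 2 of these 5 pairs the signs were opposite, and in each pair at least 1 gene was below the floor.

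Probe sets that list several symbols cover the genes the single-symbol rule leaves out. There were 59 with a histone symbol, 28 of them above the floor, and some carried the same pair of values, which left 24 distinct pairs. Of the 28, 0 were at least 1.5-fold higher, against 0.506% of all 989 expressed probe sets with several symbols, and 1 was at least 1.5-fold lower (3.57%), against 3.74%. Differences were above 0 in 14 of the 28, against 42.9% of those 989, below 0 in 12 and equal to 0 in 2.

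H3, absent from the single genes, appeared here. Of 12 probe sets for the S-phase H3 genes, 2 read above the floor. The brighter, assigned to H3c15 and 7 other H3 genes, read 8.43 in irradiated and 8.33 in control liver (0.10), and the other, for H3c10 and its relatives, 6.20 in irradiated and 6.22 in control liver (-0.02). H3.3, the H3 variant placed outside replication and encoded by H3f3a and H3f3b, had 7 probe sets, all above the floor. The brightest read 11.51 in irradiated and 11.46 in control liver (0.05). Their median difference was 0.08 and they ran from -0.30 to 0.32. The extremes were both from sets listing the same 5 symbols, with 7.61 in irradiated and 7.91 in control liver for the negative one and 6.89 in irradiated and 6.57 in control liver for the positive one. Probe sets naming the same H3.3 genes therefore did not give 1 direction.

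Of 9 shared probe sets classed as H2B, 4 reached the floor, and some of these held high readings. The set for H2bc4, H2bc6 and H2bc8 read 12.18 in irradiated and 12.12 in control liver (0.06), and the set for H2bc7, H2bc11, H2bc13 and H2bc15 read 11.94 in irradiated and 11.89 in control liver (0.05). A second probe set with these last 4 symbols read 7.14 in irradiated and 7.49 in control liver (-0.35). For H2A, the set of H2ac18, H2ac19 and H2ac20 read 10.59 on both arrays to 2 decimals. A set of 12 chromosome 13 H2A genes, H2ac10 among them, read 9.27 in irradiated and 9.05 in control liver (0.22). In each of these shared sets but the second H2bc7 one, the difference was 0.22 or less in size.

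H4 held the only shared histone probe set past 1.5-fold above the floor. It lists 13 H4 symbols and read 6.05 in irradiated and 6.76 in control liver, a difference of -0.71 or 1.64-fold lower, with the irradiated value just under the floor. The same 13 symbols stand on 3 further probe sets, all below the floor on both arrays. One of these read 3.90 in irradiated and 4.86 in control liver (-0.95), another 4.34 in irradiated and 4.10 in control liver (0.24), and the last 4.19 in irradiated and 3.73 in control liver (0.46). Sets assigned to the same H4 genes thus differed in direction, and H4c12, among those 13 symbols, had -0.02 on its own bright probe set. A group of 10 H2A symbols stood on 7 probe sets, 6 with differences above 0 and 1 below, from -0.51 to 0.60. Of the 7, 1 was above the floor (9.37 in irradiated and 9.20 in control liver). The set at 0.60 was past 1.5-fold higher but was not counted, since its 6.05 in irradiated and 5.46 in control liver were below the floor, the irradiated value only just. A set for H1f4 and 3 H2B genes read 6.44 in irradiated and 6.98 in control liver (-0.53, or 1.45-fold lower).

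**Figure D3:**
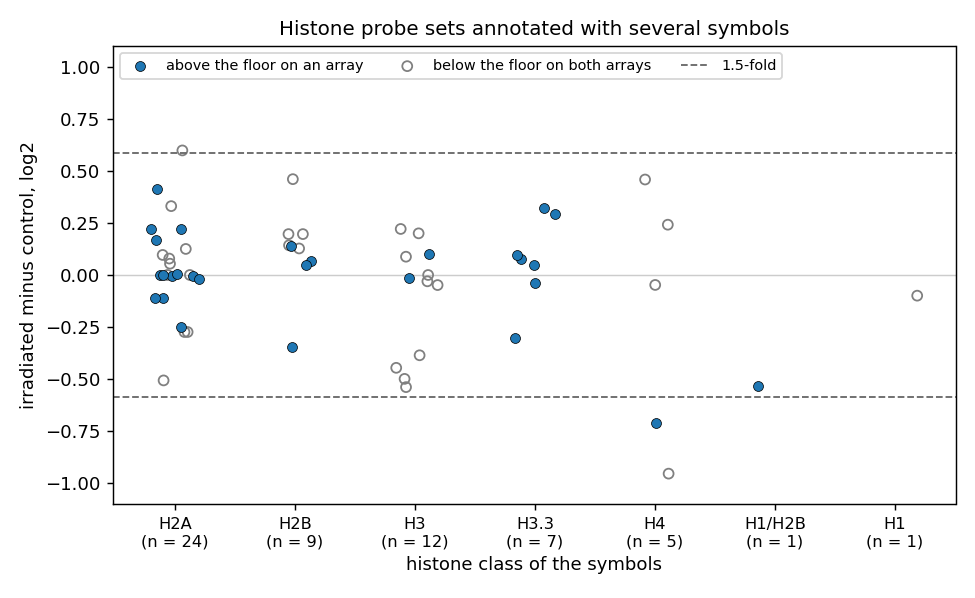
Difference between irradiated and control liver (y axis, log2) of the 59 histone probe sets that list several symbols, by histone class (x axis); filled points reached the floor on at least 1 array and open circles did not. Dashed lines mark 1.5-fold; 1 filled point, an H4 probe set at -0.71, lies beyond them, and H4 points lie on both sides of 0.

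Factors that make and process histone mRNA had 22 expressed genes of 24 listed. Of these, 8 (36.4%) were above 0 and 14 below 0, against 48.5% above 0 over all expressed genes. At 1.5-fold, 0 were past it, where 1.14% of all expressed genes were higher and 0.65% lower. The median was -0.05 and the range from -0.30 to 0.12, against a median of -0.00 for all expressed genes. Slbp, the stem-loop binding protein, read 8.43 in irradiated and 8.50 in control liver (-0.07). Npat, the activator of the clusters, read 7.92 in irradiated and 7.97 in control liver (-0.04), and Casp8ap2, which works with it, 7.29 in irradiated and 7.37 in control liver (-0.07). The largest difference was that of Nfyb, a subunit of the factor that binds CCAAT boxes, with 8.05 in irradiated and 8.35 in control liver (-0.30). Sympk, a scaffold of the cleavage complex, followed with 8.69 in irradiated and 8.86 in control liver (-0.17), and Lsm10, of the U7 particle that guides cleavage, with 8.45 in irradiated and 8.60 in control liver (-0.15).

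Histone chaperones, which carry histones to DNA, had 23 expressed genes of 27 listed, with a median of 0.02. Of the 23, 13 (56.5%) were above 0, against 48.5% of all expressed genes. At 1.5-fold, 0 were past it, where 1.14% of all expressed genes were higher and 0.65% lower. Nap1l1, a carrier of H2A and H2B, read 9.34 in irradiated and 8.99 in control liver (0.35). Dnajc9, a carrier of H3 and H4, read 6.85 in irradiated and 6.54 in control liver (0.31). The chaperones of replication gave both signs. Chaf1b, a subunit of chromatin assembly factor CAF-1, read 7.30 in irradiated and 7.56 in control liver (-0.26), and Asf1b, which hands H3 and H4 to it, 6.98 in irradiated and 6.73 in control liver (0.26). Chaf1a, the large CAF-1 subunit, was below the floor, at 5.95 in irradiated and 5.83 in control liver.

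Genes of S phase and DNA replication, with which cluster histones are normally made, had 28 expressed of 34 listed. Of these, 18 (64.3%) were above 0, against 48.5% of all expressed genes, with a median of 0.09 and a range from -0.58 to 0.44. At 1.5-fold, 0 were past it, where 1.14% of all expressed genes were higher and 0.65% lower. Mcm6, of the replicative helicase, read 7.20 in irradiated and 6.76 in control liver (0.44), and E2f1, a transcription factor of S-phase entry, 7.37 in irradiated and 7.03 in control liver (0.34). Pcna, the replication clamp, read 9.79 in irradiated and 9.68 in control liver (0.12). Mki67, a marker of cycling cells, read 6.45 in irradiated and 6.20 in control liver (0.25), while Top2a, another, was below the floor at 5.41 in irradiated and 5.43 in control liver. Gins1, also of the helicase, had the most negative value, with 5.72 in irradiated and 6.29 in control liver (-0.58), and -0.24 with the irradiated value set to the floor. The median of cluster histone genes, -0.02, stood beside 0.09 for this list, and neither was tested.

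**Figure D4:**
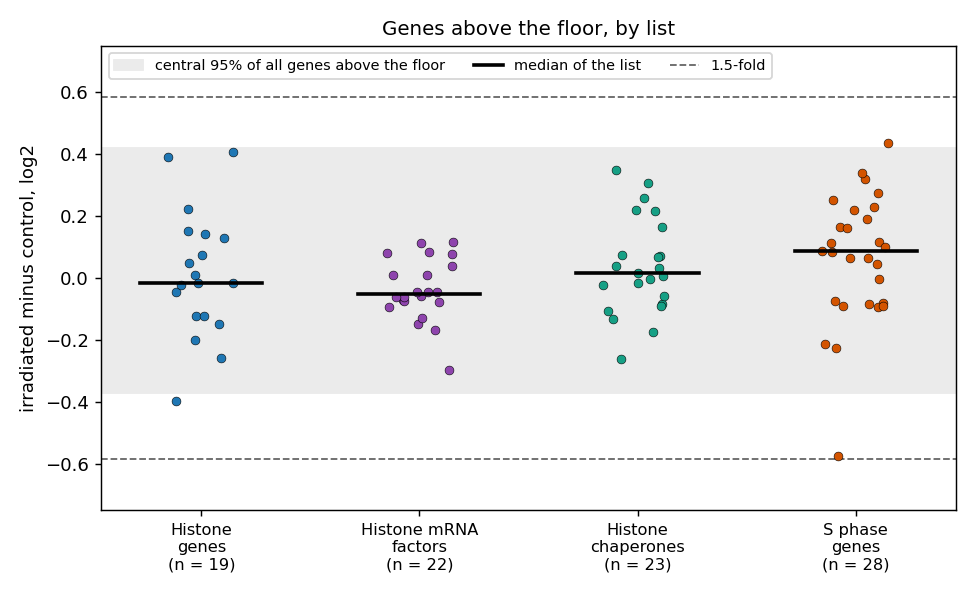
Difference between irradiated and control liver (y axis, log2) of each expressed gene among the histone genes and 3 related lists (x axis), with black bars at the medians of -0.02, -0.05, 0.02 and 0.09 from left to right. The grey band is the central 95% of all expressed genes and the dashed lines mark 1.5-fold; every point lies between the dashed lines.

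Liver identity was read from the hepatocyte markers. All 6 were expressed, with differences from -0.02 to 0.05, and Alb, the albumin gene, read 13.70 in irradiated and 13.68 in control liver. Markers of some other cell types differed between the arrays. Of 10 bile duct markers, 8 were expressed, all 8 above 0 and 6 at least 1.5-fold higher, with a median value of 7.48 in irradiated and 6.45 in control liver. Of 6 stellate and smooth muscle markers 2 were at least 1.5-fold higher. These were Acta2, at 10.45 in irradiated and 8.48 in control liver, and Des (0.95). The others were Col1a1 (0.27), Lrat (0.18), Reln (0.01) and Pdgfrb (-0.01), and the median of this list was 0.23. The background shares beside these marker counts were 48.5% above 0 and 1.14% higher by 1.5-fold or more, among 13689 expressed genes. Kupffer cell markers had a median difference of 0.14 over 7 genes, endothelial markers 0.00 over 5, and 0 of 4 neutrophil markers were expressed. T and NK cell markers had a median of 0.16 over 3 expressed genes. The B cell list had 1 expressed gene, Cd79a (-0.30), and the erythroid list 2, Klf1 (-0.29) and Slc4a1 (0.19). The part of these cell types in the histone values was not tested.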

How the data were processed

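RNA from 1 irradiated and 1 control liver was measured on an Affymetrix whole-transcript array, from 300 ng of total RNA per the labels. The deposited log2 values were made by the authors with RMA in Affymetrix Expression Console 1.3.1, per the submitters' processing notes. RMA corrects background, equalises the arrays and summarises probes, so a change in total RNA per cell is not visible. The file does not state the log base, which was read from the range, 1.47 to 13.91 for the irradiated and 1.46 to 13.87 for the control array. No source used here gives the build of the array annotation. Probe sets with 1 symbol numbered 23521, with several 1814 and with none 16010. All 47 histone genes, and 21994 of all genes, matched the RefSeq table by Entrez identifier. The sorting into cluster, variant and testis or oocyte genes was made by hand from current and older symbols.

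Differences, counts at 1.5-fold and medians were computed with Python 3.11.15, numpy 2.4.6 and pandas 2.3.3. The code was also run on simulated arrays with planted shifts past 1.5-fold in genes well above the floor. Their noise was far smaller than the spread in these data, so that run checks the code and not how reliable the differences are. No p-value was computed, since the number of arrays allows none. Genes named were the histone genes, those with the largest differences of each list and genes listed by name. The members, lists and alternatives were chosen with earlier results of these data known. Alternatives changed the floor, scaling, choice of probe set, shared probe sets, size threshold and summary.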

Additional observations from a re-analysis of the deposited data

How the results depend on the processing

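The count of expressed histone genes with a difference above 0, 9 as reported, was 22 with no floor, 1 with the floor at the 75th percentile of all values (5 genes remained), 18 with the first of several symbols used and 17 with shared histone probe sets added. The count at least 1.5-fold lower, 0 as reported, was 1 with first symbols and 1 with shared probe sets, both through the H4 probe set, and 1 (H1f8) at the smaller size threshold tried, where the count higher was 2 (H2ab1 and H2al1m). The median of variant, testis and oocyte genes, 0.03 as reported, was -0.14 with the stricter floor, where only H2ax and H2az2 of this group remained. Apart from the size threshold, these settings changed which genes and probe sets were counted. The shared probe sets added were only those listing histone symbols alone, which gave 39 values in all. The 7 H3.3 sets and the H2ab1 set with Gm14989 also name other symbols and were left out of the count of 17. The other alternatives, including the 3 scalings between arrays and 2 chosen after the data were seen (without testis and oocyte genes and pseudogenes, or with both values above the floor), moved no count by over 1.5 times and no median by over 0.1. Scaling moved the median of all genes by at most 0.02, to -0.02. Of 105 values of 15 named histone genes under 7 settings, 5 moved by over 0.1, 1 turned sign (H2ab1, -0.10 with its dimmer probe set) and 0 passed 1.5-fold. No paired analysis was possible because there was a single array per group. Signal near the floor limits most testis and oocyte genes, and no detection calls were used.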
